A study of Mus musculus with 16 samples.

Results

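Brown adipose tissue (BAT) was set against tissue labelled white adipose (WAT) in mice kept in the cold, with transcripts measured on Illumina MouseWG-6 version 1 arrays. The comparison used the 3 arrays titled Brown Cold and the 3 titled White Cold, 6 of the 16 arrays of the series. Its members were the probes with a detection score of at least 0.95 on 2 or more of these 6 arrays, which gave 15598 of the 46643 probes on the array. The detection score runs to 1 and rises as a probe's signal exceeds those of control probes that match no transcript. All 15598 members passed the filter for testing, and 11113 of them carry the name of one gene, for 8713 genes. Among probes whose second highest score lay just inside the limit, at 0.95 to below 0.96, the median of the second highest normalised log2 signal was 4.92 (773 probes). Just outside it, at 0.94 to below 0.95, that median was 4.86 (593 probes).

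All mice were female C57BL/6 animals, each housed alone on a standard chow diet, and no age is given in the sources used here. The cold BAT and cold labelled WAT groups came from mice held at 22 °C for 48 h and then at 8 °C for 24 h. The room temperature BAT and labelled WAT groups, also 3 arrays each, came from mice held at 22 °C for 72 h. Each array carried RNA of one animal, labelled and amplified separately, and no genetic change was made in any group. All tissues were sampled from each animal, so BAT and labelled WAT arrays of one temperature share animals, but no label says which arrays belong to one animal. The depot from which the white fat was taken is not given in the sources used here.

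The labels and the markers did not match for WAT. BAT arrays carried the defining transcripts of brown fat at high signal. The arrays labelled WAT had little or no signal for defining adipocyte genes such as Adipoq, Plin1 and Lep and high signal for hepatocyte genes, so they are called labelled WAT here and each direction holds for the arrays as labelled. In tissue RNA, fewer cells of a type and less RNA per cell cannot be told apart.

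Brown fat burns fatty acids in many mitochondria and releases the energy as heat through UCP1, a carrier that lets protons return across the inner membrane without making ATP. Noradrenaline from sympathetic nerves switches this on in the cold by raising cAMP, which frees fatty acids and induces thermogenic genes. White fat stores triglyceride and secretes leptin and adiponectin. Hepatocytes secrete most plasma proteins, make bile acids and urea, release glucose and form ketone bodies, which other tissues burn. Many enzymes of these pathways exist as isoforms that differ between liver, muscle and fat.

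The promoters of 4 genes at the ends of this tissue difference are shown because these genes define the sides: Ucp1 and Cox8b (a subunit of cytochrome oxidase) were high in BAT, and Hpx (hemopexin, the haem carrier of plasma) and Fga (the alpha chain of fibrinogen) were high in labelled WAT. Each sequence holds 250 bases before and 50 after the gene's start, from RefSeq with build GRCm38.p6. The windows lie at chr8:83290098-83290397 on the plus strand for Ucp1, chr7:140900397-140900696 on the minus strand for Cox8b, chr7:105600067-105600366 on the minus strand for Hpx, and chr3:83025903-83026202 on the plus strand for Fga. Capitals mark matches, on either strand, to the TATA box letters TATAAA or to the C/EBP-type letters TTGCNNAA.
Ucp1: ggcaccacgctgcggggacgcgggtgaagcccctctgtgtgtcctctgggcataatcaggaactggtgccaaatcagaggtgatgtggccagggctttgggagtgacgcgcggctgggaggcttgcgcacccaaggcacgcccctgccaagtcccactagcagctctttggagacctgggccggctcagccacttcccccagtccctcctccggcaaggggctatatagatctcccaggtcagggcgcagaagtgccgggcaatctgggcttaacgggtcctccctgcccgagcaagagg
Cox8b: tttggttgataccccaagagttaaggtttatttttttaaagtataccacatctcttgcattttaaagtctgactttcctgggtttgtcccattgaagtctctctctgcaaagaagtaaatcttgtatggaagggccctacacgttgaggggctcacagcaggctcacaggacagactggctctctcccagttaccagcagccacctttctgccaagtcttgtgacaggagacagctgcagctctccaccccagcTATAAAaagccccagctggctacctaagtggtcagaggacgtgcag
Hpx: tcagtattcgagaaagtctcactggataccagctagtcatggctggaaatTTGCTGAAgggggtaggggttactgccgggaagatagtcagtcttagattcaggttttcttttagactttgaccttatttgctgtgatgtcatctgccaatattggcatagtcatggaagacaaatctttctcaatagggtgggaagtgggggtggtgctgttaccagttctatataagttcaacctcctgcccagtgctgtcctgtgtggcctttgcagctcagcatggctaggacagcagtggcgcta
Fga: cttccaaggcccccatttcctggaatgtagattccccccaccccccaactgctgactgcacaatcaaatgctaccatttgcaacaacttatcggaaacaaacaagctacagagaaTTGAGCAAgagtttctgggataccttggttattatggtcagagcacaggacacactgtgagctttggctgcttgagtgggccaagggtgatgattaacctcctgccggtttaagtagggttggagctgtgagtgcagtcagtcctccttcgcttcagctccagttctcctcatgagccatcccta

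The TATA box letters matched in Cox8b just after its annotated start, and the C/EBP-type letters in Hpx and Fga before theirs. The window of Ucp1 held no match to these letters, nor to TGACGTCA (a cAMP response element), TCAAGGTCA (an ERR-type site) or CAAAGTCCA (an HNF4-type site). A match is a description of letters only. Of all 32851 promoters of this length, 13.6% held TATAAA, 10.8% TTGCNNAA, 1.79% TGACGTCA, 0.475% CAAAGTCCA and 0.423% TCAAGGTCA. Among 2041 genes with a member higher in BAT and a promoter in the table, TTGCNNAA was in 8.04%, TGACGTCA in 3.92%, TCAAGGTCA in 0.490% and CAAAGTCCA in 0.196%. Among 1461 genes with a member lower in BAT these shares were 10.9%, 1.64%, 0.137% and 0.890%, and among 3589 genes with no member called they were 8.47%, 3.18%, 0.334% and 0.446%.

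Signals are the deposited background-subtracted values on a linear scale, which fall below 0 for probes at background. Differences are of log2 signals after further correction and quantile normalisation, BAT minus labelled WAT. They were tested with limma over all 16 arrays, with p adjusted over the 39730 probes tested and an adjusted p under 0.05 taken as a call. Where several probes name a gene, the brightest stands for it, and a fold against a group in which no array detected the gene is a lower bound, written as at least. Signals of different probes are not comparable as levels, so each gene is compared only with itself. Across the members the log2 signals correlated at r = 0.975 to 0.980 between BAT arrays and 0.937 to 0.970 between labelled WAT arrays, against 0.667 to 0.692 between the tissues. The median SD over members was 0.21 in BAT and 0.29 in labelled WAT (log2, n = 3 each). The arrays detected 13220 to 13455 probes in cold BAT and 11915 to 13672 in cold labelled WAT. The number of arrays, 3 in each group, limits the precision, and each SD is over animals.

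Of the 15598 members, 3898 were higher in BAT, 2768 were lower and 8932 were not called. Among all 39730 probes tested, 10.1% were higher in BAT and 7.38% were lower, 17.5% in all. The members' share is larger than this by construction, since a probe bright in one tissue only is a member through that tissue: 1399 members were detected in BAT alone and 1326 in labelled WAT alone. Over the 8603 members detected on all 6 arrays, 2252 were higher in BAT, 1441 lower and 4910 not called. A difference of at least 2-fold with a call was found for 2373 members higher in BAT and 1865 lower. At 16-fold or more there were 157 higher and 402 lower. The median log2 difference was 0.07 over the members and 0 over all probes tested.

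Brown fat genes were higher in BAT by as much as at least 500-fold (Cidea). Of 27 genes of brown fat thermogenesis tested, 23 were higher in BAT, 1 was lower and 3 were not called, with a median log2 difference of 2.45. Over all 15324 named genes tested, 2470 were higher (16.1%), 1776 were lower (11.6%) and the median was 0.01. Cidea, a lipid droplet protein that marks brown adipocytes, had the highest difference of any named gene, with signals of 17111, 14942 and 14403 in BAT and -4.6, 2.7 and 10.0 in labelled WAT. It was at least 500-fold higher in BAT (log2 difference 9.38 ± 0.97, SE, adjusted p = 1.14e-05). Cox8b had 18660, 15663 and 16243 in BAT against 97.3, 29.9 and 53.6 in labelled WAT, a 247-fold difference (log2 7.95 ± 0.94, adjusted p = 3.86e-05). No labelled WAT array reached the lowest BAT array for either gene.

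Ucp1 had signals of 15527, 13678 and 11788 in BAT. On the labelled WAT arrays it had -4.8, 308.9 and 4.9, so that only replicate 2 detected it. The fitted difference was 246-fold with a wide error (log2 7.94 ± 1.24, adjusted p = 0.000423). At room temperature the labelled WAT array of replicate 2 also carried Ucp1, at 639.3, with 271.7 of Cidea and 325.0 of Cox8b, while the cold replicate 2 array had only 2.7 of Cidea and 29.9 of Cox8b. Whether brown fat RNA was present on these arrays was not tested.

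Elovl3, an elongase of very long chain fatty acids induced in active brown fat, had signals of 120, 75.8 and 116.5 in BAT and 9.5, 19.8 and 16.3 in labelled WAT, a 3.79-fold difference (log2 1.92 ± 0.21, adjusted p = 1.65e-05). Dio2, which converts thyroxine to active thyroid hormone, had 25.1, 35.7 and 85.6 in BAT and -5.5, 1.0 and 0.3 in labelled WAT. Its BAT arrays were all above the labelled WAT arrays, at least 1.93-fold (adjusted p = 0.000512). Zic1 and Prdm16, transcription factors of the brown fat lineage, were at least 2.36-fold and at least 2.11-fold higher in BAT.

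Regulators of mitochondrial number were also higher in BAT. Ppargc1a, the coactivator that drives mitochondrial genes, had 208.7, 231.4 and 423.3 in BAT and 61.5, 67.5 and 58.4 in labelled WAT (3.72-fold, adjusted p = 0.000812). Its relative Ppargc1b was 4.62-fold higher and Esrra, the nuclear receptor both coactivate, was 4.78-fold higher. Kcnk3, a potassium channel of brown adipocytes, was at least 17.0-fold higher, and Ebf2, a factor that sets brown fat identity, at least 7.08-fold higher. The 1 gene of this group that was lower in BAT was Slc27a2, an acyl-CoA synthetase abundant in liver, with 586.6, 378.3 and 1064 in BAT and 6361, 6016 and 2800 in labelled WAT (7.47-fold lower, adjusted p = 0.000820). Bmp8b, Pank1 and Lhx8 were not called, with log2 differences of 0.54, 0.50 and 0.09.

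**Figure D1:**
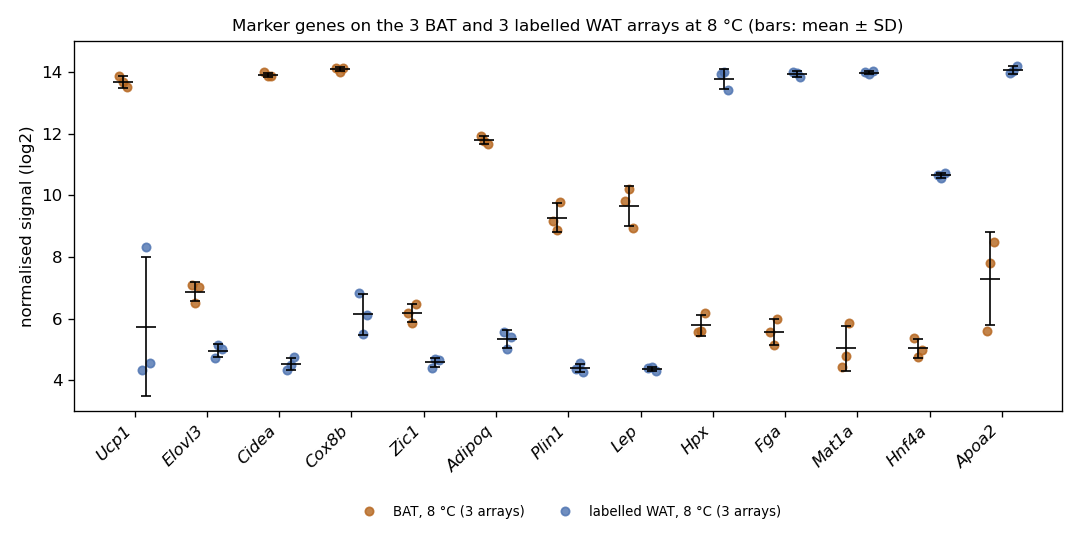
Normalised log2 signal of 13 marker genes on each of the 3 BAT arrays (brown points) and 3 labelled WAT arrays (blue points) at 8 °C, with mean ± SD. Brown fat and adipocyte genes lie higher on the BAT arrays and hepatocyte genes on the labelled WAT arrays. Ucp1 is detected on 1 of the 3 labelled WAT arrays, which widens its SD to 2.25.

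Genes of the adipocyte itself went with BAT, not with the WAT label. Of 21 genes of adipocyte identity tested, 16 were higher in BAT, 2 were lower and 3 were not called, with a median log2 difference of 3.73. On cold BAT arrays 20 of the 21 were detected, against 10 or 11 on each cold labelled WAT array. Car3, Orm1, Dgat2 and Cebpa were bright on the labelled WAT arrays too. Dgat2, an enzyme of triglyceride synthesis, had 11742, 12992 and 8332 in BAT and 8247, 6148 and 5434 in labelled WAT. The summed signals of all 21 genes, these 4 included, were 62778 to 65746 on cold BAT arrays and 27143 to 28983 on cold labelled WAT arrays.

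Adipoq, which encodes adiponectin, had 3918, 3544 and 3245 in BAT and 32.4, 16.6 and 27.5 in labelled WAT (87.5-fold, adjusted p = 5.01e-08). Lep, which encodes leptin and is typically highest in white fat, had 893.0, 1147 and 476.4 in BAT and -1.8, 0 and -7.0 in labelled WAT. No labelled WAT array detected Lep, and its difference was at least 26.2-fold (adjusted p = 1.49e-07). Plin1, the coat protein of the lipid droplet, was likewise detected on no labelled WAT array, with 559.9, 453.1 and 871.5 in BAT and -3.4, 4.4 and -8.4 in labelled WAT (at least 20.2-fold). Pparg, the nuclear receptor that directs fat cell formation, was 20.5-fold higher in BAT.

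The enzymes that release and take up fatty acids were among the adipocyte genes higher in BAT. Lpl, the lipase that frees fatty acids from plasma lipoproteins, had 8595, 7591 and 11362 in BAT and 96.0, 102.3 and 106.8 in labelled WAT, 76.9-fold. Pnpla2, the first lipase of stored triglyceride, had 13882, 13548 and 11846 in BAT and 752.1, 685.8 and 788.9 in labelled WAT, 16.7-fold. Cidec, which enlarges lipid droplets, was at least 144-fold higher and Adig, an adipocyte protein, at least 121-fold higher. The 2 adipocyte genes lower in BAT were Orm1, an acute phase plasma protein that liver also makes (2.80-fold), and Car3, a carbonic anhydrase shared by fat, muscle and liver (2.77-fold), of which a second probe was not called (log2 -1.02). Cebpa, a factor of both fat and liver cells, was not called, with 2018, 3732 and 2902 in BAT and 4088, 2673 and 3221 in labelled WAT. The probe of Fabp4 was dim, at 32.9, 18.2 and 31.5 in BAT and 4.6, 9.2 and 1.6 in labelled WAT, and that of Cd36 was at background in both tissues.

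Of 12 white fat markers tested, 5 were higher in BAT (Lep, Hoxc8, Slc7a10, Rb1 and Dpt), 1 was lower and 6 were not called (median log2 difference 0.95). Hoxc8, a factor of the posterior body axis found in white depots, had 323.8, 358.8 and 427.0 in BAT and -3.7, -3.3 and 4.9 in labelled WAT, at least 12.4-fold. A second Hoxc8 probe, detected on all 6 arrays, showed no such difference, with 34.6, 28.4 and 32.2 in BAT and 36.1, 22.0 and 32.6 in labelled WAT (log2 0.06, adjusted p = 0.895). The marker lower in BAT was Agt, angiotensinogen, made by both liver and fat, with 4.9, 9.6 and 1.3 in BAT and 1015, 544.1 and 927.5 in labelled WAT (at least 27.8-fold lower). No white fat marker on the list other than Agt passed the threshold on the side of labelled WAT.

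Hepatocyte genes formed the opposite side of the comparison. Of 55 hepatocyte genes for secreted proteins, 54 were lower in BAT, none was higher and 1, Fgg, was not called. Their median log2 difference was -6.43, and their summed signals were 19549 to 19882 on cold BAT arrays against 335956 to 391678 on cold labelled WAT arrays. Hpx had 31.8, 33.5 and 56.7 in BAT and 16934, 16172 and 11069 in labelled WAT, 257-fold lower in BAT (log2 -8.00 ± 0.48, adjusted p = 8.69e-08). Fga had 31.9, 19.6 and 48.4 in BAT and 17816, 15746 and 15041 in labelled WAT, 332-fold lower.

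By its brightest probe, the lowest gene in BAT was Mat1a, which makes S-adenosylmethionine in liver, with 0.6, 11.3 and 42.7 in BAT and 17569, 14935 and 17659 in labelled WAT (492-fold lower, log2 -8.94 ± 0.58, adjusted p = 1.59e-07). Only 1 BAT array detected Mat1a, so its fold depends on signals near background, and a second probe of Fga lay lower still (log2 -9.09). Apoc4, an apolipoprotein, was 436-fold lower and Itih4, an inhibitor heavy chain of plasma, 355-fold lower. After Fga came Ugt2b36 (a glucuronosyltransferase, at least 251-fold), Ahsg (fetuin A, 326-fold), Apom (an apolipoprotein of HDL, at least 241-fold), Cyp2a5 (a cytochrome P450, at least 246-fold) and Itih1 (at least 212-fold). The gene 1300017J02Rik was 291-fold lower and Cyp2d9 290-fold. Each was detected on 1 BAT array only, so these folds too depend on signals near background. Arg1, the arginase of the urea cycle, was at least 205-fold lower. With Fga, these 12 were the lowest of 3982 named genes with a call whose arrays did not overlap and that all 3 arrays of the brighter tissue detected.

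Some plasma protein genes were bright in both tissues. Kng1, the kininogen gene, had 5765, 5316 and 3994 in BAT and 19378, 17943 and 22370 in labelled WAT (3.73-fold lower, adjusted p = 0.00229). Hp, which encodes haptoglobin, had 4727, 4258 and 4426 in BAT and 9838, 7944 and 12432 in labelled WAT (2.19-fold lower), and a second probe of Hp was not called (log2 -0.90). Apoc1 was 2.03-fold lower. The probe of Alb was near background on all 6 arrays, at -4.1, -2.5 and -3.3 in BAT and 2.4, 12.5 and 6.7 in labelled WAT, and Fgg was detected on none. The call for Alb (adjusted p = 0.0222) therefore rests on signals near background.

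Liver enzymes and their regulators followed the secreted proteins. Of 32 cytochrome P450 genes tested 28 were lower in BAT and 4 were not called (median log2 -5.36). Cyp2e1, which oxidises ethanol and small solvents, had 745.9, 747.8 and 534.8 in BAT and 21702, 15562 and 15868 in labelled WAT (24.5-fold lower, adjusted p = 7.19e-06). Cyp3a11, the main drug-metabolising P450 of mouse liver, differed among the labelled WAT arrays, with 0.6, 12.5 and -4.4 in BAT and 6401, 9246 and 1215 in labelled WAT. Cyp4a14, a fatty acid hydroxylase induced by PPAR alpha, varied there still more, with -7.2, -1.6 and -0.6 in BAT and 971.6, 95.7 and 422.1 in labelled WAT (at least 12.4-fold lower).

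Of 18 genes of bile acid synthesis and transport, 17 were lower in BAT and 1, Akr1d1, was not called. Cyp7a1, the rate-limiting enzyme of bile acid synthesis, had -1.9, -3.8 and -0.9 in BAT and 2514, 3926 and 2761 in labelled WAT (at least 103-fold lower, adjusted p = 5.19e-09). Cyp8b1, which sets the share of cholic acid, was 257-fold lower, and Slc10a1, the bile acid uptake carrier, 230-fold lower. Abcb11, the bile salt export pump, was at least 11.5-fold lower.

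Of 21 genes of the urea cycle and amino acid breakdown, 18 were lower in BAT, 1 was higher and 2 were not called. Cps1, the entry enzyme of the urea cycle, had -6.2, 5.5 and 5.9 in BAT and 10044, 9287 and 2302 in labelled WAT (at least 204-fold lower). Ass1, which joins citrulline and aspartate in that cycle, had 100.2, 102.8 and 114.1 in BAT and 18180, 13345 and 15688 in labelled WAT (127-fold lower). The gene higher in BAT was Glul, glutamine synthetase, with 51.4, 61.1 and 112.5 in BAT and 5.9, 11.8 and 41.7 in labelled WAT (2.56-fold, adjusted p = 0.0101). Its call was lost without BAT cold replicate 3 (adjusted p = 0.0506), on the 6 arrays alone (0.0851), with the authors' value table (0.0583) and with a floor of 5 (0.058).

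Of 13 transcription factors of liver, 10 were lower in BAT and 3 (Cebpa, Ppara and Onecut1) were not called. Hnf4a, a master regulator of hepatocyte genes, had 26.1, 10.1 and 15.9 in BAT and 1598, 1508 and 1652 in labelled WAT (48.7-fold lower, adjusted p = 3.13e-08). Foxa3 was at least 84.5-fold lower, Nr1h4, the bile acid receptor, at least 64.4-fold lower and Nr1i3, a sensor of foreign compounds, at least 48.6-fold lower, although 2 dimmer probes of Nr1i3 were not called (log2 -0.34 and 0). Ppara, the receptor that induces fatty acid oxidation in both tissues, had 57.3, 70.5 and 51.5 in BAT and 47.2, 112.2 and 109.3 in labelled WAT, which overlap.

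**Figure D2:**
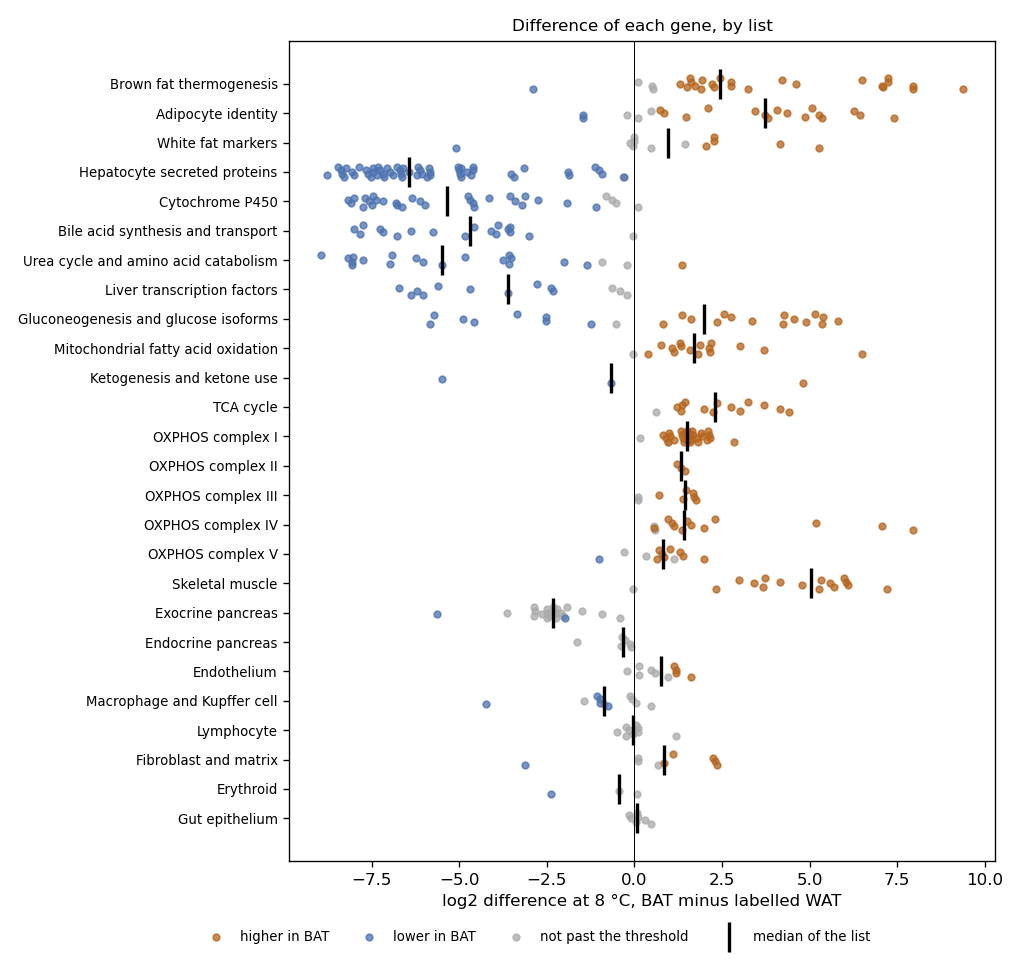
Log2 difference at 8 °C, BAT minus labelled WAT, of each tested gene in the 26 lists, each point a gene coloured by its call and the black bar the median of the list. Lists of hepatocyte function lie left of 0, with medians of -6.43 to -3.61, and those of fat, muscle and mitochondria mostly right of it.

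Most mitochondrial genes tested were higher in BAT. Of 16 genes of mitochondrial fatty acid oxidation, 15 were higher and 1 was not called (median log2 1.70). Acadm, which acts on medium chains, had 7067, 6676 and 6002 in BAT and 2210, 2137 and 600.0 in labelled WAT (4.57-fold, adjusted p = 0.00160). Hadhb, the beta subunit of the trifunctional protein, had 6272, 7157 and 7227 in BAT and 653.9, 1054 and 882.1 in labelled WAT (8.07-fold). By its brightest probe Acaa2, the last thiolase of the pathway, was close to equal, at 10153, 11843 and 10114 in BAT and 8222, 8299 and 7946 in labelled WAT (1.31-fold, adjusted p = 0.0448). That call was lost in 12 of the 16 fits that leave out an array. Another probe was called at a larger difference (log2 1.71, 3.28-fold, adjusted p = 0.0482), and a further probe was not called (log2 1.89). On both of these probes labelled WAT replicate 3 was the lowest array. By the methods' t-test after Benjamini-Hochberg, 6 of the 16 genes were higher.

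Of 14 genes of the TCA cycle, 13 were higher in BAT and Fh1 was not called (median log2 2.29), and 6 were higher by the methods' t-test after Benjamini-Hochberg. Idh3a, a subunit of isocitrate dehydrogenase, had 2892, 3022 and 2752 in BAT and 120.4, 119.7 and 124.0 in labelled WAT (21.4-fold, adjusted p = 2.43e-09). Cs, citrate synthase, had 4966, 5446 and 3855 in BAT and 380.7, 422.5 and 273.1 in labelled WAT (12.9-fold). Suclg1, of succinyl-CoA ligase, was 9.47-fold higher, with one low labelled WAT array at 149.7 (replicate 3) against 663.0 and 950.4.

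Among respiratory chain genes, 31 of 33 of complex I, 3 of 3 of complex II, 6 of 8 of complex III, 12 of 14 of complex IV and 8 of 12 of complex V were higher in BAT. Medians of the log2 difference were 1.51, 1.32, 1.43, 1.42 and 0.81 in that order of complexes. Ndufc1 of complex I, whose difference was above the median of its complex, had 11224, 10431 and 10945 in BAT and 2244, 2400 and 2662 in labelled WAT (4.44-fold). Complex V had the lowest median and held the only respiratory chain gene lower in BAT, Atpif1, the inhibitor of ATP synthase, with 521.4, 495.7 and 516.0 in BAT and 924.6, 1062 and 1196 in labelled WAT (2.03-fold lower, adjusted p = 0.000618). The complex V count of 8 was 3 with the replicate number as a block, 4 with a limit of 2-fold, 2 by the methods' t-test and 1 by that test after Benjamini-Hochberg. No test was made of complex V against the other complexes.

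Several complex IV genes come as pairs, of which one form is expressed in heart, muscle and brown fat and the other widely. The restricted forms Cox8b and Cox7a1 were 247-fold and 135-fold higher in BAT, and Cox7a1 had 14159, 14520 and 12937 in BAT and 121.1, 65.2 and 78.8 in labelled WAT. The wide form Cox7a2 had 575.1, 505.4 and 648.2 in BAT and 224.2, 256.6 and 277.9 in labelled WAT, 2.20-fold. Cox6a2, the muscle form, was 36.6-fold higher in BAT and its wide partner Cox6a1 3.94-fold. Cox4i1, the main form of subunit 4, was 1.49-fold higher (adjusted p = 0.0109). That call was lost without BAT cold replicate 1 (adjusted p = 0.0552) and on the 6 arrays alone (0.0933). It was also lost with the replicate number as a block over 6 arrays (0.221) or 12 arrays (0.0686). By the methods' t-test after Benjamini-Hochberg it was lost too (adjusted p = 0.271).

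The enzymes of glucose use were split by isoform. Of 24 genes tested 15 were higher in BAT, 8 were lower and 1, Pck1, was not called. Slc2a4, the insulin-regulated glucose carrier of fat and muscle, had 1073, 982.7 and 800.0 in BAT and 10.3, 4.2 and -3.6 in labelled WAT (at least 31.2-fold higher). Slc2a2, the carrier of liver and beta cells, had 8.9, 11.8 and 8.4 in BAT and 184.1, 171.1 and 83.0 in labelled WAT (at least 5.25-fold lower). The groups did not overlap for either carrier.

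Glycolytic forms were on the BAT side. Aldoa, the aldolase of muscle, had 12964, 11588 and 13778 in BAT and 413.5, 355.2 and 453.5 in labelled WAT (30.1-fold). Pfkl, named the liver form of phosphofructokinase, was nevertheless higher in BAT, with 10254, 9195 and 9848 there and 502.0, 434.7 and 543.8 in labelled WAT (19.1-fold), and the muscle form Pfkm was 5.94-fold higher. Pygl, the liver glycogen phosphorylase, was 2.57-fold higher in BAT too, while its muscle form Pygm was at least 3.41-fold higher and the muscle glycogen synthase Gys1 19.3-fold. On the other side, Pklr, the pyruvate kinase of liver, was at least 7.49-fold lower in BAT and Khk, which traps fructose, lower by a log2 difference of -4.91.

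Glucose release followed labelled WAT. G6pc, the glucose-6-phosphatase that frees glucose, had 24.0, 22.5 and 27.3 in BAT and 1852, 2509 and 2036 in labelled WAT (52.9-fold lower, adjusted p = 5.54e-08). Fbp1, the fructose bisphosphatase of gluconeogenesis, was at least 44.2-fold lower. Pck1, which feeds both glucose output in liver and glycerol synthesis in fat, had 77.2, 85.7 and 172.4 in BAT and 161.2, 181.1 and 134.6 in labelled WAT, and the groups overlapped.

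Genes of ketone metabolism were split by role. Oxct1, the enzyme that lets tissues burn ketone bodies and that hepatocytes lack, had 1713, 2348 and 2235 in BAT and 54.8, 60.6 and 62.9 in labelled WAT (27.9-fold higher). Bdh1, which makes hydroxybutyrate in liver, had 16.8, 8.8 and 20.3 in BAT and 1387, 1510 and 1304 in labelled WAT (45.3-fold lower). Acat1, a thiolase of both directions, was 1.59-fold lower, a call that was lost without BAT cold replicate 1 or 3 or labelled WAT cold replicate 1 or 2. Among fatty acid gates, Cpt1b, the muscle and brown fat form of the carnitine transferase, had 3580, 3673 and 3427 in BAT and 16.1, 22.2 and 33.9 in labelled WAT (90.3-fold), and the probe of the liver form Cpt1a was at background on all 6 arrays.

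**Figure D3:**
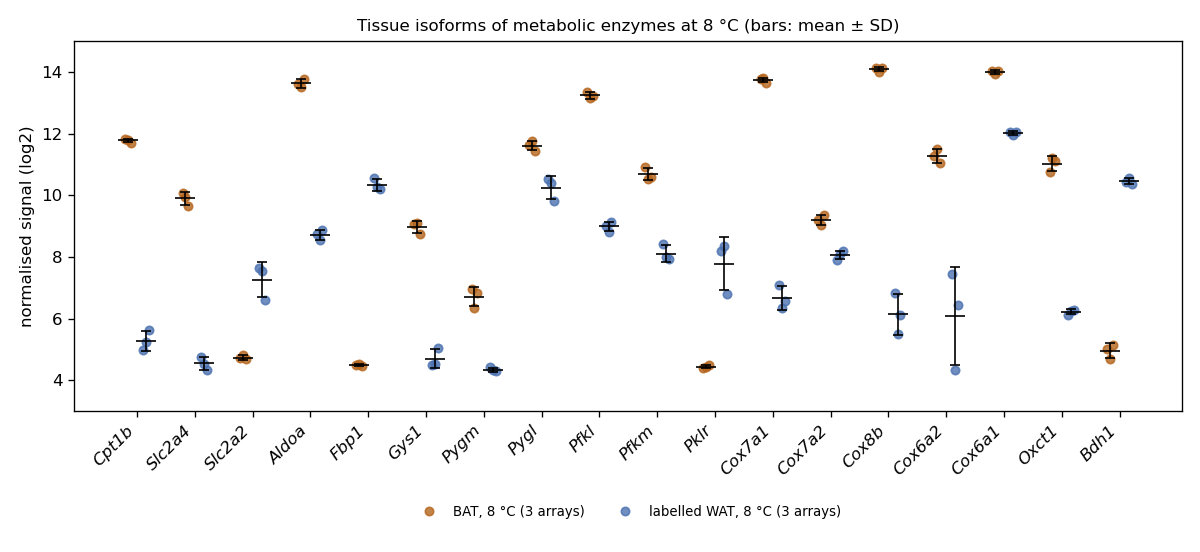
Normalised log2 signal of 18 genes for tissue forms of metabolic enzymes and carriers on each of the 3 BAT arrays (brown) and 3 labelled WAT arrays (blue) at 8 °C, with mean ± SD. Forms of muscle and fat such as Cpt1b, Slc2a4 and Oxct1 lie higher in BAT, and Slc2a2, Fbp1, Pklr and Bdh1 lie higher in labelled WAT, while Pfkl and Pygl lie higher in BAT despite their names.

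The remaining genes at the high end of BAT belong to fuel choice and signalling. Pdk4, which closes pyruvate dehydrogenase so that fat is burned, had 3862, 4570 and 4658 in BAT and 10.6, 21.2 and 6.4 in labelled WAT (151-fold). Fabp3, the fatty acid binding protein of muscle and brown fat, was 150-fold higher. Acot11, an acyl-CoA thioesterase of brown fat, was 138-fold higher. Only 1 labelled WAT array detected Pdk4 and only 1 detected Acot11, so the folds of these genes depend on signals near background. Prkar2b, the cAMP-binding regulatory subunit of protein kinase A in fat, was at least 116-fold higher (a second probe, at log2 1.06, was not called). Rgcc, a regulator of the cell cycle, was at least 75.6-fold higher.

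Transcripts of other cell types moved with this difference. Of 16 skeletal muscle genes 15 were higher in BAT and Myh1 was not called, with a median log2 difference of 5.03 (8 were higher by the methods' t-test after Benjamini-Hochberg). All cold BAT arrays detected 15 of the 16, with summed signals of 37996 to 52744, against 1560, 44 and 948 on the labelled WAT arrays. Acta1, the actin of skeletal muscle, had 10659, 13852 and 9809 in BAT and 496.9, 9.7 and 307.4 in labelled WAT (68.4-fold). Pvalb, the calcium buffer of fast muscle fibres, was among the 12 highest genes in BAT at 147-fold. Genes that muscle and brown fat share, such as Cox7a1, Cox8b, Cox6a2, Fabp3, Slc2a4, Pygm, Oxct1 and those of mitochondria, were measured beside these signals, and the part of muscle RNA in their differences was not tested.

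Transcripts of Kupffer cells, the macrophages of liver, were higher in labelled WAT. Clec4f, a receptor restricted to Kupffer cells, had 0.6, 1.6 and 6.8 in BAT and 567.3, 371.8 and 351.7 in labelled WAT (at least 14.8-fold lower). Of 11 macrophage genes 5 were lower in BAT and none was higher. Besides Clec4f, the largest difference was that of C1qb of the complement cascade (2.11-fold lower), and only 3 of the 11 genes were called when any one of 5 of the 6 arrays was left out. Of 10 endothelial genes 4 were higher in BAT, among them Flt1, a receptor of VEGF (3.06-fold).

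Of 9 fibroblast and matrix genes 5 were higher in BAT, such as Col1a1 of collagen I (5.15-fold) and Sparc (at least 3.84-fold), and 3 were when BAT cold replicate 2 was left out. Fn1, the fibronectin that liver secretes to plasma, was 8.73-fold lower in BAT. None of the 9 lymphocyte genes, 7 gut genes and 6 endocrine pancreas genes was called. Hba-a1, of haemoglobin, was bright in both tissues and not called, whereas Alas2, the first enzyme of haem synthesis in red cell precursors, was 5.16-fold lower in BAT.

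One labelled WAT array carried transcripts of the exocrine pancreas, the gland that secretes digestive enzymes. Of the 22 genes on the list, the cold BAT arrays detected 3 to 5, with summed signals of 1769 to 2641. Cold labelled WAT replicate 3 detected all 22, with a sum of 121521, and replicates 1 and 2 detected 3 and 4, with sums of 7110 and 7232. Ctrb1, the precursor of chymotrypsin, had 1.2, 4.5 and 33.3 in BAT and 6.1, 3.9 and 18318 in labelled WAT. Cela2a, a pancreatic elastase, had 7.2, 10.9 and 25.9 in BAT and 44.2, 37.9 and 18135 in labelled WAT, and Clps, the cofactor of pancreatic lipase, had -0.6, -6.8 and 1.5 in BAT and -2.4, 1.4 and 7765 in labelled WAT.

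The probes that were detected on an array and lay at least 3 log2 units above both other arrays of its group numbered 1, 3 and 2 on the BAT arrays and 3, 2 and 44 on the labelled WAT arrays. The 44 named 33 genes, of which 19 were on the exocrine list. The 10 furthest above were Ctrb1, Clps, Pnliprp1, Cpa1, Cela2a, Try4, Sycn, Zg16, Pdia2 and Ctrl, genes of pancreatic proteases, lipases and secretory granules. Ins2, the insulin gene of the endocrine pancreas, stood apart as well, with 9.5, 3.5 and 6.2 in BAT and 4.1, 4.3 and 834.2 in labelled WAT. Only 16 of the 44 were members.

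Nearly all of these probes missed the threshold between tissues. Of the 44 only 1, Cela1, was called, with 59.1, 16.8 and 21.9 in BAT and 798.0, 1132 and 12230 in labelled WAT (50.1-fold lower in BAT, adjusted p = 0.000120). Amy2a5, an amylase probe, was called too, with 2501, 2234 and 1620 in BAT and 6188, 5999 and 16028 in labelled WAT (3.98-fold lower). For both, the other labelled WAT arrays were above every BAT array. Weaker pancreas transcripts were present on 2 room temperature labelled WAT arrays, where the list medians were 4.43 to 4.61 log2 units on the BAT arrays and 5.10, 6.22 and 4.47 on the labelled WAT arrays.

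**Figure D4:**
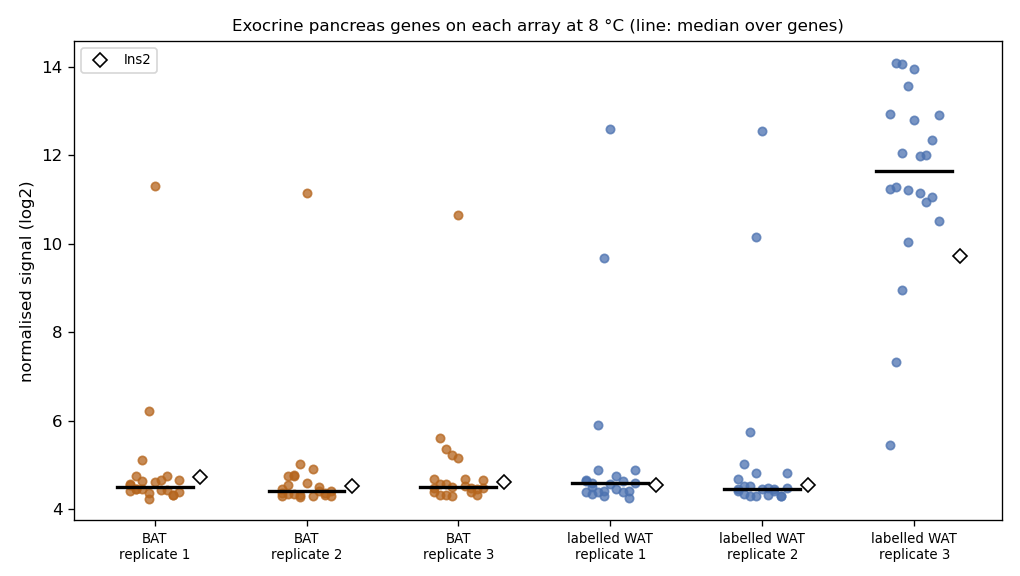
Normalised log2 signal of 22 exocrine pancreas genes (points) on each of the 3 BAT arrays and 3 labelled WAT arrays at 8 °C, with the median over the genes as a line and Ins2 as an open diamond. The median is 11.63 on labelled WAT replicate 3 and 4.41 to 4.59 on the other 5 arrays, and the points that are bright on every array are Amy2a5.

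The same array was low for other genes. Members that lay at least 2 log2 units below both other arrays of the group, which detected them, numbered 10, 11 and 5 on the BAT arrays and 10, 16 and 113 on the labelled WAT arrays, a measure chosen after the values were seen. Of the 113, 25 were called lower in BAT, 16 higher and 72 not at all. Selenof, a selenoprotein of the endoplasmic reticulum, had 478.9 and 516.1 on replicates 1 and 2 and 13.1 on replicate 3. Cyp3a11, Acadl and Suclg1 were also among the 113. Cps1 and Slc10a1 were lowest on replicate 3 too, but were not among the 113. Without this array 3645 members were higher in BAT and 2714 lower, so the counts for the comparison moved by less than 1.5 times.

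The tissue difference at 8 °C was set against that at 22 °C, to see how far it depended on the cold. At 22 °C 3533 of the members were higher in BAT and 2690 were lower. The members were chosen by detection on the cold arrays, and the share called at 22 °C among all probes tested is not given here. These counts therefore describe the members only. Of the members called at 8 °C, 5170 were called in the same direction at 22 °C, 5 in the opposite direction and 1491 not at all. The change of the difference with temperature was called for 7 members, against 0.0201% of all probes tested. An unadjusted p under 0.05 in that test was found for 1806 of the 15598 members, counted as probes. Among named genes, with 1 probe each, it was found for 1337 of all 15324 tested. These counts differ in unit, and the count over all probes tested is not given here. The count of called members was 2 to 29 when an array was left out, 2 without BAT room replicate 1 and 29 without either cold liver array. With the replicate number as a block within temperature it was 0, so none of the 7 calls held in that fit.

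The named genes among the 7 were Mtor, Clip1 and Cenpo, all further above labelled WAT in the cold. Mtor, the kinase of nutrient sensing, had 405.1, 387.6 and 422.4 in cold BAT and 118.3, 106.8 and 95.8 in cold labelled WAT. At 22 °C it had 228.0, 312.7 and 292.3 in BAT and 209.4, 159.6 and 179.1 in labelled WAT, so its difference was 1.79 in the cold and 0.56 at 22 °C (adjusted p of the change 0.0415). Clip1, which binds the growing ends of microtubules, had 658.1, 465.1 and 668.2 in cold BAT and 103.9, 88.6 and 81.8 in cold labelled WAT. Its log2 difference was 2.51 in the cold and 1.07 at 22 °C (adjusted p of the change 0.0403). Cenpo, a centromere protein, was at background in labelled WAT at both temperatures and had 301.4, 189.9 and 257.1 in cold BAT against 64.9, 71.5 and 72.3 in room temperature BAT. The other 4 were probes without a gene name in the annotation used. Of these, 3 were further above labelled WAT in the cold, with changes of 2.03, 1.78 and 1.29, and 1 was further below it, with a change of -1.65.

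Elovl3 and Dio2 were not called by that test. Elovl3 had a log2 difference of 1.92 in the cold and -0.07 at 22 °C, where its signals were 15.8, 26.8 and 3.5 in BAT and 14.0, 16.0 and 21.9 in labelled WAT (adjusted p of the change 0.0537). Dio2 had 1.49 in the cold and 0.06 at 22 °C (adjusted p of the change 0.232). Ucp1, by contrast, had 7.94 and 6.87, a change of 1.07 ± 1.75 (adjusted p = 0.95).

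Hepatocyte transcripts also differed between the temperatures on BAT arrays. The summed signal of the 55 secreted protein genes was 19549 to 19882 on cold BAT arrays and 36873 to 48075 on room temperature BAT arrays, and the list's median difference was -6.43 in the cold and -5.53 at 22 °C. Mup2, a major urinary protein of liver, had 227.7, 586.7 and 1069 in cold BAT and 8780, 7620 and 12590 in room temperature BAT, with 17454 or more on every labelled WAT array of the cold. Apoa2 and Ttr showed the same order, with log2 differences of -6.78 and -7.68 in the cold and -2.25 and -3.67 at 22 °C. A second Apoa2 probe had a smaller change, with -6.64 in the cold and -4.42 at 22 °C (change -2.21 ± 1.58, SE). On that probe cold labelled WAT replicate 1 was low, at 820.7 against 13691 and 15476. None of the 55 passed the test of the change. At an unadjusted p under 0.05 there were 27 of the 55, against 1337 of all 15324 named genes tested. The source of this RNA on BAT arrays was not tested.

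**Figure D5:**
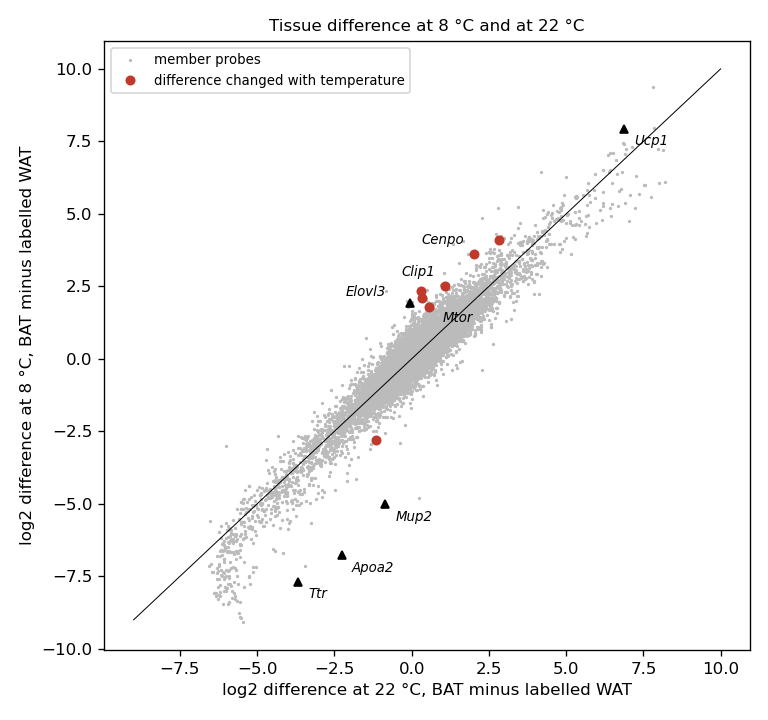
Log2 difference between BAT and labelled WAT at 8 °C (vertical axis) against that at 22 °C (horizontal axis) for the 15598 members (grey points), with the line of equality, the 7 members whose difference changed with temperature in red, and named genes as triangles. Most members lie along the line, and the hepatocyte genes Mup2, Apoa2 and Ttr lie far below it.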

How the data were processed

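RNA of 3 animals per tissue and temperature (2 for liver) was hybridised to 16 MouseWG-6 version 1 arrays. The authors deposited background-subtracted signal intensity for each probe and array, not normalised between arrays, with a detection score that rises with signal although its column heading calls it a p-value. The deposited value table holds log2 values of the same arrays and served as an alternative. For their own tests the authors set each probe's normalised signal against its median over all samples in GeneSpring GX, filtered on present or marginal flags and used a t-test with a fold limit. The deposited value table equals log2 of the deposited signals with a floor of 5, less each probe's median over the 16 arrays (largest gap 2.54e-06). As an alternative it is thus close to the run with a floor of 5, which adds quantile normalisation. Signals were corrected with normexp (offset 16), quantile normalised and taken to log2 in R 4.3.3 with limma 3.58.1. Probes with a detection score of at least 0.6 on 2 or more arrays were tested with lmFit and eBayes, and p was adjusted by the Benjamini-Hochberg method. One model held the 6 groups of tissue and temperature over 16 arrays. The procedure was tested on simulated data.

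Probes were named through the platform annotation: 25349 carry 1 gene name and 21294 carry none. Genes named were the 12 highest and 12 lowest called genes with no overlap between arrays and detection on all 3 arrays of the brighter tissue, members of fixed gene lists, probes whose difference changed with temperature, and those standing apart on one array. Members and lists were chosen with earlier results of these data known. Alternatives were another offset, a floor of 5, 75th percentile scaling, the value table, other filters, fits on 6 or 12 arrays, trended and robust moderation, a replicate block, the methods' t-test and leaving out each array. The files held 0 columns of other samples. The tissues were taken from each animal, so BAT and labelled WAT arrays of one temperature share animals, but no label ties a replicate number to an animal and the model treated the arrays as independent.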

Additional observations from a re-analysis of the deposited data

Results flagged for a closer look

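The tissue difference, BAT minus labelled WAT, changed with temperature for 7 members by limma's test of the difference between the differences at 8 °C and at 22 °C (adjusted p of 0.000635 to 0.0415). The log2 change was 2.03 for probe 4403, 1.78 for probe 7662, 1.29 for probe 24429, 1.44 for Clip1, 1.59 for Cenpo, 1.22 for Mtor and -1.65 for probe 7080. Probe 4403 had signals of 95.7, 85.4 and 111.8 in cold BAT and 0.8, 2.4 and 1.6 in cold labelled WAT, and 4.8, 18.3 and 8.4 in BAT at 22 °C. With the replicate number as a block within temperature, 0 members passed this test. With 3 arrays in a group, single arrays were not tested as outliers.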

How the results depend on the processing

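No called gene among 320 on the lists, at the ends of the range or with a temperature change reversed its tissue difference under any alternative run. Counts of members higher and lower in BAT (3898 and 2768) were within 1.5 times of these under all alternatives but 2. The methods' t-test after Benjamini-Hochberg gave 1893 and 1536, with 1942 and 1592 over all probes tested, and 71 of the 320 genes lost their call. Asking for 2-fold as well gave 2373 members higher in BAT, and 2373 higher and 1865 lower over all probes. Leaving out an array gave 3443 to 3931 members higher and 2439 to 2784 lower, and over all probes 3586 to 4053 higher and 2521 to 3012 lower.

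The count of members whose tissue difference changed with temperature, 7 in the fit over 16 arrays, moved the most. It was 17 with an offset of 50, 13 with a floor of 5, 13 with the authors' value table, 3 with no filter, 22 with members alone tested, 63 with 12 arrays and 22 with trended and robust variances. Leaving out an array gave 2 to 29. With BAT room replicates 1, 2 and 3 left out in turn it was 2, 18 and 4. Dropping BAT cold replicate 1 gave 3, and dropping BAT cold replicate 2 gave 16. It was 4, 3 and 4 without labelled WAT room replicates 1, 2 and 3, 21 and 12 without labelled WAT cold replicates 1 and 2, 29 without either cold liver array and 15 without either room liver array. The cause was not tested.

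BAT and labelled WAT arrays of one temperature share animals, but no label says that a replicate number marks an animal. Deviations of same-numbered arrays from their group means correlated at 0.16, 0 and -0.02, which leaves the pairing unknown. With this number as a block over 6 arrays, 2841 members were higher and 2089 lower, and 30 of the 320 genes lost their call. Over 12 arrays with the block within temperature these counts were 3826 and 2740, with 0 members changing with temperature. By the methods' t-test after Benjamini-Hochberg, endothelial genes higher in BAT numbered 2 in place of 4 and macrophage genes lower in BAT 2 in place of 5. Genes whose signal lay near background in both tissues were limited by that signal.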

Other observations

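Muscle transcripts were not confined to BAT arrays. Of the 16 muscle genes, 8, 0 and 8 were detected on cold labelled WAT replicates 1, 2 and 3, and 0, 8 and 0 on the room temperature ones. Endocrine pancreas genes summed to 18, 17 and 942 on the cold labelled WAT arrays. Among 710 genes with at least 2 called probes, 17 had probes called in opposite directions.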
